A study of Mus musculus with 4 samples.

Results

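Interferon-high smooth muscle cells are smooth muscle cells of the mouse thoracic aorta that carry transcripts of several interferon-stimulated genes at once. A cell was taken as smooth muscle when it held at least 3 transcripts (unique molecular identifiers, UMIs) of Myh11, the smooth muscle myosin heavy chain, with fewer than 10 of the fibroblast genes Dcn and Lum together and fewer than 10 of the phagocyte genes Lyz2, C1qa and C1qb together. Within this gate a cell was called interferon-high when at least 3 of 8 genes (Ifit1, Ifit3, Isg15, Irf7, Iigp1, Usp18, Xaf1 and Oasl2) were detected with 1 or more transcripts. The cells were thus chosen by their measured UMI counts of these 8 genes, and the levels of the 8 genes in them are given as a description. The rule found 103 interferon-high cells among 28204 gated smooth muscle cells and 38316 cells in all. They were set against the 25375 gated cells with none of the 8 genes detected. Gated cells with 1 or 2 of the genes belong to neither class.

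The cells came from 4 droplet libraries of viable aortic cells, each pooled from 3 mice. Transcripts were captured by their 3′ ends, and copies of 1 molecule were counted as 1 UMI. The Sting-KO AngII library came from mice labelled as lacking Sting, fed a high fat diet for 5 weeks and infused with angiotensin II (AngII), a hormone that constricts arteries, for 7 days. The WT AngII library came from wild-type mice on the same diet and infusion. The Sting-KO saline library and the WT saline library came from mice on normal diet given saline. Diet and infusion changed together, so their parts in any difference cannot be told apart. With 1 library a group there is no replicate of a genotype or treatment, and values are set side by side between libraries with 95% exact intervals that cover counting error only.

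Type I interferons are secreted when a cell senses viral or misplaced nucleic acid. They bind the receptor made of Ifnar1 and Ifnar2, whose kinases start a signal that brings Stat2 and Irf9 into a complex, which binds a repeated GAAA element in the promoters of interferon-stimulated genes. Ifit1 and Ifit3 encode proteins that recognise foreign RNA, Isg15 encodes a ubiquitin-like modifier and Usp18 the protease that removes it and restrains the receptor. Irf7 is a transcription factor that amplifies interferon production, Iigp1 a GTPase that attacks vacuoles of intracellular parasites, Xaf1 a gene linked to cell death, and Oasl2 a relative of the oligoadenylate synthetases. Sting is the adaptor that passes on the signal of the cytosolic DNA sensor cGAS.

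The promoters of the 3 rule genes whose window held the element are shown because these genes were detected in most of the interferon-high cells of the WT AngII library. Each window runs from 250 bases before to 50 bases after the annotated start, from RefSeq on GRCm38.p6, 5′ to 3′ on the strand of the gene. Capitals mark every place with 2 copies of GAAA and 2 bases between them, on either strand (GAAA reads as TTTC on the other), and overlapping matches run together.
Ifit1, chr19:34640639-34640938, plus strand: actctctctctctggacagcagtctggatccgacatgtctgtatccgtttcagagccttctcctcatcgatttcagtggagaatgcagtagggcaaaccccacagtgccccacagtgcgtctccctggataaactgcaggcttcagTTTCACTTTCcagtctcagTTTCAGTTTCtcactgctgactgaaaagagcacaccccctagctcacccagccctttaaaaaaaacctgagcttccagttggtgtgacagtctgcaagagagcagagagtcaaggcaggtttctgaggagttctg
Ifit3, chr19:34583279-34583578, plus strand: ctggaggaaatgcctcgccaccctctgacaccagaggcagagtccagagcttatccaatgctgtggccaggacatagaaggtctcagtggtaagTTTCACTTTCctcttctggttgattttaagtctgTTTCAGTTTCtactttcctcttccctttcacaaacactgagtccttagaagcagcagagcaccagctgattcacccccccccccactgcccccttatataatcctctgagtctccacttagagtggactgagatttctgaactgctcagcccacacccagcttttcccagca
Isg15, chr4:156200769-156201068, minus strand: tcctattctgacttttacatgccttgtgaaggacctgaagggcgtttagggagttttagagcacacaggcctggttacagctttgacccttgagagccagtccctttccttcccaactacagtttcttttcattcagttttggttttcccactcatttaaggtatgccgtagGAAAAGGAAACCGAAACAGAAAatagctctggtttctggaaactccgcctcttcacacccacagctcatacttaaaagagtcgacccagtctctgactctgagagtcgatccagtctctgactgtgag

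Ifit1 and Ifit3 each held 2 matches and Isg15 held 3 that overlap. A window was available for 6 of the 8 rule genes, and in Irf7, Xaf1 and Oasl2 these letters were not present. Of all 32851 promoter windows, 3.44% held at least 1 match. A match is a description of the sequence, not a measured binding site.

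The libraries held 94698727 UMIs in 8507 cells (Sting-KO AngII), 90581097 UMIs in 8495 cells (WT AngII), 76841976 UMIs in 12053 cells (Sting-KO saline) and 60064038 UMIs in 9261 cells (WT saline). The targeted gene, listed as Tmem173, was counted in gated cells at 1.12 UMIs for every 1000000 UMIs (CPM) in the Sting-KO AngII library and 0.932 CPM in the WT AngII library, and at 0.651 CPM in the Sting-KO saline library and 0.566 CPM in the WT saline library. It was not lower in the libraries labelled KO; the sources used here do not name the deleted part of the gene, and a 3′ count outside that part checks nothing. Sting-KO is used throughout as the libraries are labelled. Pairs of libraries shared between 92 and 148 cell barcodes, and 1 interferon-high cell carried a shared barcode in each of 2 of the 6 pairs. Doublets were not removed.

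The cells carried the smooth muscle programme that the gate asked for. The 10 smooth muscle markers summed to between 34270.1 and 43735 CPM over the interferon-high cells of the 4 libraries, against 38697 to 48182 CPM over cells with none of the 8 genes. All 10 were detected in the interferon-high cells of 3 libraries, and 1 was at 0 in the 7 cells of the Sting-KO saline library. The lists for T and NK cells, neutrophils, dendritic cells, red cells and adipocytes were at 0 UMIs in the interferon-high cells of every library, and the B cell and plasma cell list held 1 UMI in all. The phagocyte list summed to 68.7 CPM in WT AngII and 41.8 CPM in WT saline interferon-high cells, against 72.8 CPM and 36.9 CPM in cells with none of the genes. The 9 fibroblast markers, 2 of which the gate limits, summed to 4991 CPM in WT AngII interferon-high cells, against 3266 CPM in cells with none, and to 2355 CPM in WT saline interferon-high cells, against 1569 CPM in cells with none. In the Sting-KO libraries they summed to 3048 CPM under AngII and 1711 CPM under saline in interferon-high cells, against 3184 CPM and 1814 CPM in cells with none. All 29 endothelial UMIs in the Sting-KO AngII interferon-high cells lay in 1 of the 7 cells.

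Interferon-high smooth muscle cells were rare in every library and rarer in the 2 libraries labelled KO. Under AngII they made up 0.131% of gated cells in the Sting-KO library (7 of 5353, 95% exact binomial interval 0.0526 to 0.269) and 0.821% in the WT library (46 of 5601, 0.602 to 1.09). Under saline they made up 0.0707% in the Sting-KO library (7 of 9894, 0.0284 to 0.146) and 0.585% in the WT library (43 of 7356, 0.423 to 0.787). The Sting-KO share was 0.159 times the WT share under AngII (0.0607 to 0.355) and 0.121 times under saline (0.0459 to 0.271), and neither pair of shares had overlapping intervals. Between treatments the intervals overlapped: the AngII share was 1.85 times the saline share in the Sting-KO libraries (0.553 to 6.18) and 1.40 times in the WT libraries (0.907 to 2.18). In the WT libraries this rested on the number of genes asked for. With at least 2 of the 8 genes the WT AngII share was 2.50% (2.11 to 2.94), against 1.56% in WT saline (1.29 to 1.87), which is 1.60 times as high (1.24 to 2.06). With at least 4 it was 2.10 times as high (1.17 to 3.88). With 3 of the genes but the fibroblast and phagocyte sums each under 3, it was 1.13 times as high (0.695 to 1.83). That gate held 34 interferon-high cells of 5395 in WT AngII, against 46 of 5601 before, and 40 of 7183 in WT saline, against 43 of 7356. In WT AngII 16 of the 46 interferon-high cells had no Dcn or Lum UMI, against 3145 of 4884 cells with none of the 8 genes, which were shallower. No UMI of the phagocyte genes was found in 26 of the 46, against 3230 of the 4884. Some interferon-high cells thus carried mixed marker counts, and the part of doublets was not tested.

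Because a deeper cell passes a detection rule more easily, each gated cell was also thinned to 3000 UMIs. Interferon-high cells then made up 0.0374% of gated cells in Sting-KO AngII, 0.304% in WT AngII, 0.0227% in Sting-KO saline and 0.224% in WT saline. The Sting-KO share was 0.123 times the WT share under AngII (0.0138 to 0.519) and 0.102 times under saline (0.0113 to 0.432). In the WT libraries the thinned AngII share was 1.35 times the saline share (0.644 to 2.86). Thinning left out 1100 Sting-KO saline cells and 215 WT saline cells that were shallower, and no AngII cell. Cells with at least 5 of the 8 genes numbered 2 in Sting-KO AngII, 25 in WT AngII, 1 in Sting-KO saline and 11 in WT saline. Single detections were far more even, at 6.43% of gated cells in Sting-KO AngII, 10.3% in WT AngII, 8.85% in Sting-KO saline and 9.22% in WT saline.

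**Figure D1:**
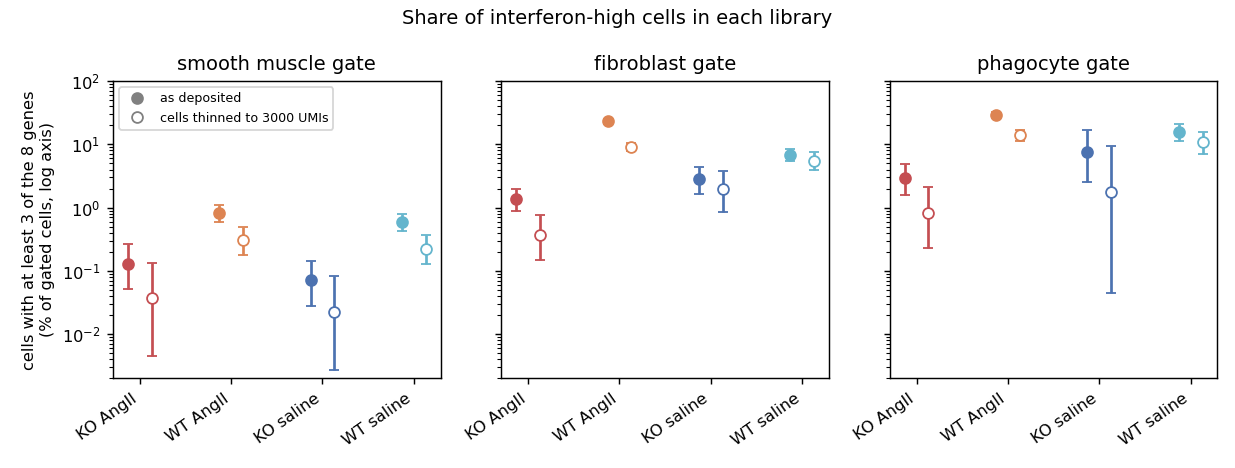
Share of cells with at least 3 of the 8 genes, in percent of gated cells on a log axis, in the smooth muscle, fibroblast and phagocyte gates of the 4 libraries; filled points are cells as deposited, open points cells thinned to 3000 UMIs, bars 95% exact binomial intervals. In the smooth muscle gate the Sting-KO points, at 0.131% under AngII and 0.0707% under saline, lie below the WT points at 0.821% and 0.585%.

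The same 8-gene rule was far more often met by the other cells of the wall. Among cells with at least 10 UMIs of the 2 fibroblast genes, under 3 of Myh11 and under 10 of the phagocyte genes it was met by 1.37% in Sting-KO AngII, 23.3% in WT AngII, 2.81% in Sting-KO saline and 6.84% in WT saline. Among cells with at least 10 UMIs of the phagocyte genes, under 3 of Myh11 and under 10 of the fibroblast genes it was met by 2.92%, 29.2%, 7.69% and 15.5% in the same libraries. After thinning to 3000 UMIs, 9.05% of the WT AngII cells in the fibroblast gate met it, against 0.304% of those in the smooth muscle gate. In the WT fibroblast gate the AngII share lay above the saline share with intervals that did not overlap (21.3 to 25.3 against 5.39 to 8.53), at median depths of 9121 and 3618 UMIs. Thinned to 3000 UMIs these shares were 9.05% (7.74 to 10.5) in WT AngII and 5.50% (3.92 to 7.47) in WT saline. In the WT smooth muscle gate the intervals overlapped; the difference between the gates was not tested.

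At the edge of the rule, cells with exactly 3 of the genes numbered 3 in Sting-KO AngII, 14 in WT AngII, 5 in Sting-KO saline and 23 in WT saline, and held a median of 12, 5, 4 and 4 UMIs of the 8 genes. Cells just outside, with 2 of the genes, numbered 22, 94, 63 and 72 and held a median of 2 such UMIs in each library. Interferon-high cells as a whole held a median of 12 in the AngII libraries of either genotype, 5 in Sting-KO saline and 6 in WT saline. A few cells were much stronger: the highest held 66 UMIs in Sting-KO AngII, 104 in WT AngII, 25 in Sting-KO saline and 39 in WT saline. These top cells carried 46.5%, 12.5%, 46.3% and 9.54% of the 8-gene UMIs of their library's interferon-high cells, of which there are 7, 46, 7 and 43, and a class of few cells must give its top cell a larger share.

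Among the 8 genes Isg15 was the most often detected in the interferon-high cells of 3 libraries: in 6 of 7 cells in Sting-KO AngII, 38 of 46 in WT AngII and 35 of 43 in WT saline. Its level in these cells was 504 CPM in Sting-KO AngII (372 to 669), 358 CPM in WT AngII (313 to 407), 238 CPM in Sting-KO saline (133 to 392) and 272 CPM in WT saline (219 to 333). In Sting-KO saline Ifit1 led, in 5 of 7 cells. Ifit1 stood at 242 CPM, 261 CPM, 190.2 CPM and 283 CPM in the same order of libraries.

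Levels of other genes of the rule are likewise given as values only. Irf7 reached 189 CPM in Sting-KO AngII and 111 CPM in WT AngII interferon-high cells, against 15.8 CPM in Sting-KO saline and 38.8 CPM in WT saline. The Sting-KO saline value was 1 UMI, and in Sting-KO AngII 1 cell held 8 of the 18 UMIs. Iigp1 was at 21.0 CPM in Sting-KO AngII, from 1 of 7 cells, and at 134 CPM in WT AngII, 63.4 CPM in Sting-KO saline and 71.6 CPM in WT saline.

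**Figure D2:**
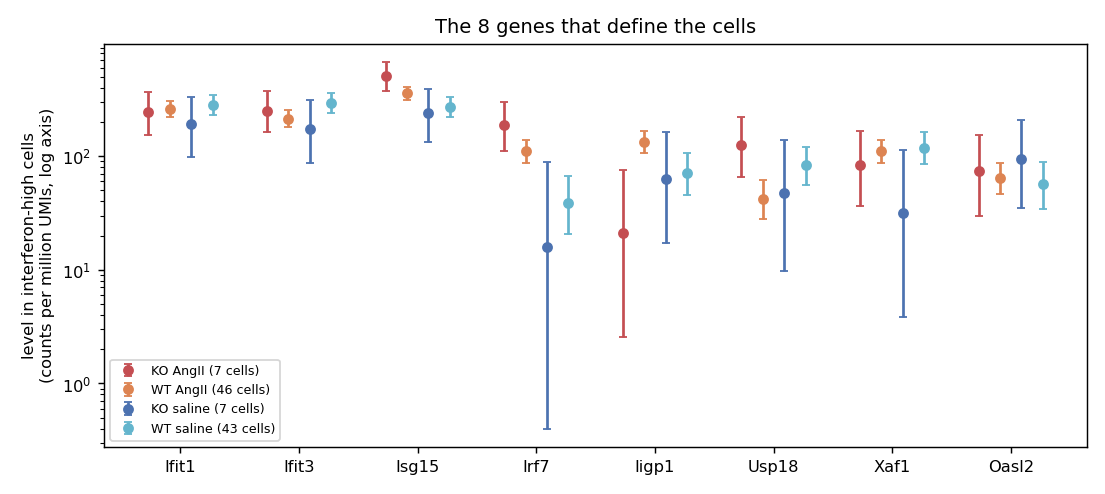
Level of each of the 8 defining genes in the interferon-high cells of the 4 libraries, in CPM on a log axis, with 95% exact Poisson intervals that cover counting error only. Ifit1 lies between 190.2 and 283 CPM in all 4 libraries. The Irf7 points of the AngII libraries lie above those of the saline libraries. The Sting-KO saline point is 1 UMI, and its interval (0.401 to 88.3) overlaps that of WT AngII (86.6 to 139.9).

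Summed over all gated smooth muscle cells, the 8 genes stood at 10.1 CPM in Sting-KO AngII, against 28.4 CPM in WT AngII (log2 ratio -1.49, exact conditional interval -1.64 to -1.36), and at 16.6 CPM in Sting-KO saline, against 25.3 CPM in WT saline (-0.61, -0.72 to -0.49). Interferon-high cells held 25.6% of these UMIs in Sting-KO AngII, 48.7% in WT AngII, 4.82% in Sting-KO saline and 31.6% in WT saline, with 0.173%, 1.07%, 0.0934% and 0.654% of all UMIs of the gate. With the interferon-high cells left out, the 8 genes stood at 7.50 CPM in Sting-KO AngII (6.80 to 8.26) and 14.7 CPM in WT AngII (13.8 to 15.7), and at 15.8 CPM in Sting-KO saline (14.9 to 16.8) and 17.4 CPM in WT saline (16.3 to 18.6). The remaining level was lower in Sting-KO than in WT under both treatments. The intervals lay apart under AngII and overlapped under saline, and overlap of separate intervals does not show equal levels. The cells left out were chosen by these 8 genes, so leaving them out must lower the sums.

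Ifit1 was the most concentrated of the 8 genes in 3 of the 4 libraries. Interferon-high cells held 62.2% of its gated UMIs in Sting-KO AngII, 80.7% in WT AngII, 26.7% in Sting-KO saline and 78.5% in WT saline. Oasl2 was more concentrated in Sting-KO AngII, with 7 of its 10 gated UMIs. Xaf1 was spread most widely in WT AngII, with 6.30%, 23.6%, 0.680% and 16.8% of its UMIs in interferon-high cells. Iigp1 was concentrated in WT AngII (53.8%) but not in WT saline (11.1%), where cells outside the class held 192 of its 216 gated UMIs.

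**Figure D3:**
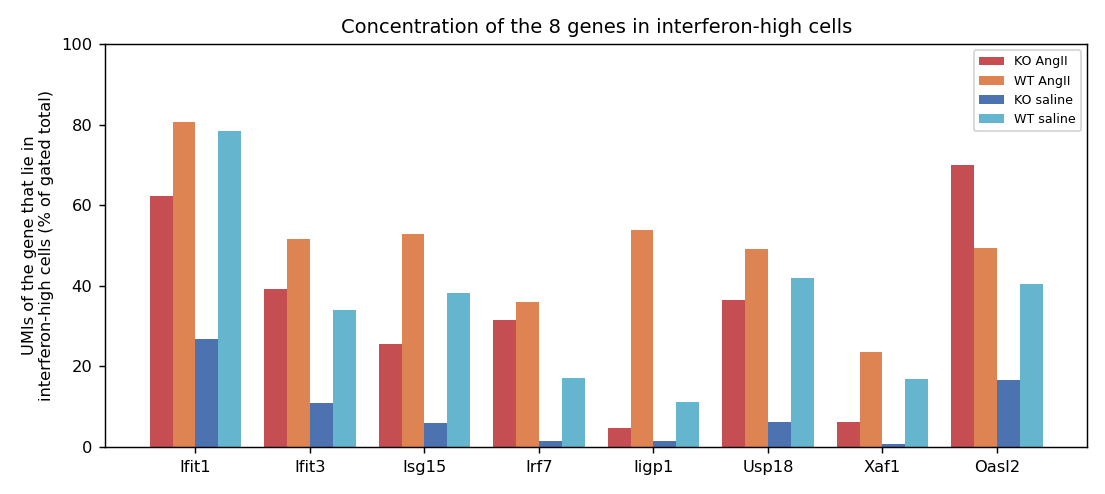
Percent of each gene's UMIs in the smooth muscle gate that lie in interferon-high cells, for the 8 defining genes and 4 libraries. Ifit1 bars reach 80.7% in WT AngII and 78.5% in WT saline, while Xaf1 bars stay at or below 23.6%.

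Which other genes accompany the 8 was tested on UMIs summed over interferon-high cells and over cells with none detected, within each library, with the 8 rule genes and the 6 gate genes left out. Only the WT AngII and WT saline libraries had at least 20 interferon-high cells and entered the edgeR quasi-likelihood fit, which leaves 1 residual degree of freedom. The p-values therefore reflect mainly counting error, and they describe what goes with a class already chosen for interferon-stimulated genes. At an adjusted p under 0.05, 148 of 12281 genes (1.21%) were higher and 84 (0.684%) lower in interferon-high cells; with median-of-ratios scaling 163 were higher and 51 lower, and DESeq2 called 75 higher and 5 lower. Interferon-high cells were deeper, with a median depth of 13022 (WT AngII) and 8256 UMIs (WT saline), against 10058 and 6263 in cells with none. Against cells matched on UMIs, 147 of 9279 genes (1.58%) were higher and 34 (0.366%) lower, among them 129 of the higher calls and 30 of the lower calls above. The same sign was seen in both WT libraries for 134 of the 148 higher and 83 of the 84 lower genes.

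Other interferon-stimulated genes were the clearest companions. Of 57 such genes in the files 41 were tested, and 29 were higher and the other 12 did not pass, with a median log2 fold change of 2.95 against -0.06 over all genes tested. This list overlaps in function with the rule and is not independent evidence of its direction. Ifitm3, a membrane protein that blocks virus entry, was at 1892 CPM in WT AngII and 1134 CPM in WT saline interferon-high cells, against 241 CPM and 219 CPM in cells with none. It was detected in all 46 interferon-high cells of WT AngII and 41 of 43 of WT saline. Its log2 fold change was 2.66 ± 0.10 (SE of the fit on 2 libraries, edgeR adjusted p = 1.4e-152). The SE here and below is derived from the test statistic and does not measure the spread between the 2 libraries. The 7 interferon-high cells of each Sting-KO library were not in the fit. They held 2764 CPM under AngII and 729 CPM under saline, against 272 CPM and 185 CPM in cells with none.

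Bst2, which tethers budding virus to the membrane, was at 291 CPM in WT AngII and 143 CPM in WT saline interferon-high cells, against 28.6 CPM and 29.3 CPM in cells with none (log2 fold change 2.93 ± 0.16, edgeR adjusted p = 1.9e-67). Ifi27l2a was at 420.2 CPM and 89.5 CPM in interferon-high cells, against 28.3 CPM and 15 CPM in cells with none; 1 cell held 54.6% of its UMIs in WT AngII. Ly6e and Lgals3bp rose by 3.67 ± 0.31 and 3.40 ± 0.28 on the log2 scale. Phf11d rose by 4.02 ± 0.35.

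Rtp4, an inhibitor of viral replication, had the largest change in this list, at 45.3 CPM in WT AngII and 71.6 CPM in WT saline interferon-high cells, against 0.465 CPM and 0.2 CPM in cells with none. Its log2 fold change was 7.36 ± 0.74 (edgeR adjusted p = 1.3e-20), and it was detected in 41.3% and 39.5% of interferon-high cells, against 0.491% and 0.137% of cells with none. Rsad2, the antiviral enzyme viperin, and Ifit3b were next, with log2 fold changes of 6.41 ± 1.11 and 6.11 ± 0.46. Ifit3 and Ifit3b are near-identical copies, so the split of reads between them is uncertain.

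Ifit2, a neighbour of Ifit1 and Ifit3 in the same gene cluster, did not go with them. It had 4 UMIs in the interferon-high cells of each WT library, or 6.25 CPM in WT AngII and 11.9 CPM in WT saline, against 4.86 CPM and 8.88 CPM in cells with none. Its log2 fold change of 0.37 ± 0.64 did not pass the test (edgeR adjusted p = 0.992). The 2 promoter windows of Ifit2 held no match to the GAAA element, and neither did those of the rule genes Irf7, Xaf1 and Oasl2. A link between match and level was not tested.

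Interferon-induced GTPases, which act against vacuolar pathogens and are induced also by type II interferon, rose in 8 of 9 members tested of 14 in the files, with a median log2 fold change of 4.22. Gbp3 was at 50.0 CPM in WT AngII and 26.9 CPM in WT saline interferon-high cells, against 1.12 CPM and 1.11 CPM in cells with none (5.11 ± 0.64, edgeR adjusted p = 7.4e-13). Igtp rose by 5.07 ± 0.69, Gbp7 by 4.22 ± 0.51 and Gbp2 by 2.96 ± 0.29 on the log2 scale. Gbp2 was at 106 CPM in WT AngII and 20.9 CPM in WT saline interferon-high cells, against 9.26 CPM and 7.79 CPM in cells with none. Tgtp2 had the largest fitted change (6.99 ± 1.84) but from 10 UMIs in the WT AngII class and 2 in the WT saline class. Members of these families share sequence, and their counts are uncertain to that extent.

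Genes of MHC class I antigen presentation rose in 9 of 17 members tested, with a median log2 fold change of 1.01. B2m, the light chain of MHC class I, was at 2207 CPM in WT AngII and 1041 CPM in WT saline interferon-high cells, against 765 CPM and 753 CPM in cells with none (1.01 ± 0.09, edgeR adjusted p = 5.1e-27). The proteasome subunit Psmb8 and the peptide transporter Tap1 rose by 4.17 ± 0.67 and 3.30 ± 0.70, and the heavy chains H2-K1 and H2-D1 by 1.40 ± 0.17 and 0.89 ± 0.14. Of the 6 MHC class II genes tested edgeR called 0 in either direction, 0 had an unadjusted p under 0.05 and DESeq2 called 0. The class I genes changed less in fold than the GTPases; the difference between the lists was not tested.

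Among 16 interferon signalling genes tested, 4 rose, among them Stat2 by 3.09 ± 0.61, Irf9 by 3.04 ± 0.39 and Irf1 by 1.17 ± 0.28; Irf1 did not pass with DESeq2 or with all 4 libraries entered. The receptor genes Ifnar1 and Ifnar2 had log2 fold changes of 0.24 ± 0.48 and 0.33 ± 0.22 and the kinase Jak1 of -0.12 ± 0.24, none past the test. Of 11 nucleic acid sensing genes tested, the RNA sensors Ddx58 (2.58 ± 0.37) and Ifih1 (4.28 ± 1.01) rose. Neither the DNA sensor Mb21d1, which encodes cGAS, nor Tmem173 had a UMI in the interferon-high cells of the WT libraries. Cells with none held 0.775 CPM of Mb21d1 in WT AngII and 0.488 CPM in WT saline. At 3 counts, 0 UMIs in interferon-high cells allow up to 4.69 CPM in WT AngII and 8.95 CPM in WT saline. These limits lie above those Mb21d1 levels and above the Tmem173 levels of the gate, so the absence of UMIs does not show a lower level. Ifnb1, the one interferon gene of the list in the files, had 0 UMIs in either class of every library. Of 8 chemokine genes tested 1 rose, Ccl2, which attracts monocytes, and of 10 NF-kB targets 3 rose: the adhesion molecule Vcam1 and the inhibitors Nfkbia and Tnfaip3. Of 9 genes of cell death and the inflammasome 1 rose, the caspase Casp4. Of these 5 genes DESeq2 called 2, both among the NF-kB targets. Ccl2 rested on 1 cell: it had 20 UMIs in WT AngII interferon-high cells, 17 of them in the same cell, and 0 UMIs in WT saline. It was detected in 6.52% of interferon-high cells of WT AngII, against 5.38% of cells with none.

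**Figure D4:**
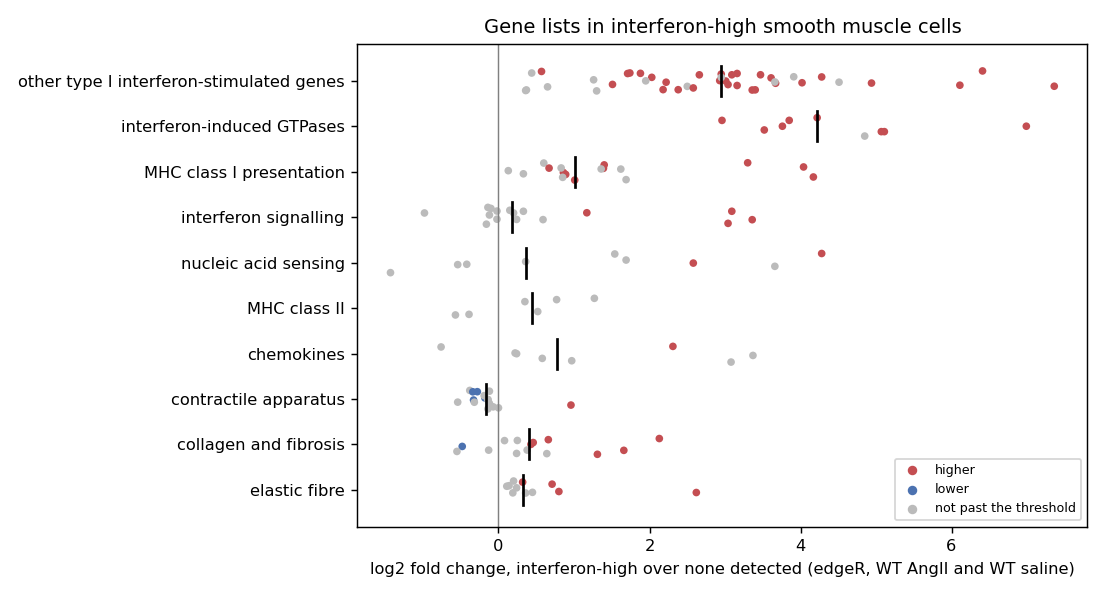
Log2 fold change of each tested gene (edgeR, interferon-high over none detected, WT AngII and WT saline libraries) in 10 gene lists; red marks genes that passed as higher, blue as lower, grey the rest, and black lines the list medians. Genes with no UMI in interferon-high cells are not drawn. Interferon-stimulated genes and GTPases lie furthest to the right, with medians of 2.95 and 4.22.

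The smooth muscle programme changed little in size, and mostly downwards. Of 16 contractile genes tested edgeR called 1 higher and 4 lower, and DESeq2 called 0. At an unadjusted edgeR p under 0.05, 1 was higher and 9 lower, and the median log2 fold change was -0.16. The summed smooth muscle markers were lower in interferon-high cells than in cells with none in every library, at 34270.1 against 38697 CPM in WT AngII and 42844 against 44796 CPM in WT saline. Acta2, Cnn1, Mylk and Flna fell by 0.18 to 0.34 on the log2 scale, none of them against cells matched on UMIs. The higher call was Des, the intermediate filament desmin (0.96 ± 0.17), which moved in opposite directions in the WT libraries. It was at 341 CPM in WT AngII and 35.8 CPM in WT saline interferon-high cells, against 74.1 CPM and 135 CPM in cells with none. Acta2, smooth muscle actin, was at 15841 CPM in WT AngII and 18887 CPM in WT saline interferon-high cells, against 18822 CPM and 19814 CPM in cells with none. Of 14 collagen and fibrosis genes 6 rose and 1 fell, of 11 elastic fibre genes 4 rose and the other 7 did not pass, and of 9 genes of modulated smooth muscle 2 rose and 1 fell. Col3a1 rose by 0.66 ± 0.08 and Col1a2 by 0.43 ± 0.07, while Fn1 (fibronectin) fell by 0.48 on the log2 scale with an SE of 0.09. With all 4 libraries entered, 2 of the collagen and 2 of the elastic fibre genes were called higher; Col3a1 was at 0.04 (edgeR adjusted p = 0.973) and Col1a2 at -0.05. DESeq2 called 3 higher in each of the 2 lists and did not call Fn1. The summed fibroblast markers, which include Col1a1 and Col3a1, were also higher in the interferon-high cells of both WT libraries and not in those of the Sting-KO libraries, as given above; their part in the result was not tested. Of 47 genes tested in the unfolded protein response, immediate early and heat shock, p53 and cell cycle lists, edgeR called 0 and DESeq2 0; at an unadjusted p under 0.05, 3 were higher and 3 lower.

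The genes that fell were fewer and smaller in change. Hoxa7, a positional homeobox gene, was at 6.25 CPM in WT AngII and 14.9 CPM in WT saline interferon-high cells, against 42.7 CPM and 57.4 CPM in cells with none (-2.39 ± 0.36, edgeR adjusted p = 1.3e-08). Its levels in interferon-high cells rested on 4 and 5 UMIs. In the Sting-KO libraries, outside the fit, it was not less often detected. Under saline 57.1% of interferon-high cells held it, against 25.2% of cells with none, and under AngII 28.6%, against 26.0%. Ccdc3 was at 217 CPM and 215 CPM in interferon-high cells, against 627 CPM and 447 CPM in cells with none (-1.34 ± 0.13). Art3 and Sparcl1 fell by 2.21 and 1.06 on the log2 scale. Rgs5, a regulator of G protein signalling, passed as lower (-0.85 ± 0.15), but was at 221 CPM in WT saline interferon-high cells, against 197 CPM in cells with none.

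A few further genes rested on 1 library. Tnnt2, cardiac troponin T, was at 515 CPM in WT AngII interferon-high cells, against 48.2 CPM in cells with none, and in 26 of 46 cells. In WT saline it was at 77.6 CPM, against 127 CPM in cells with none. Spp1 (osteopontin) was at 669 CPM in WT AngII interferon-high cells, against 147 CPM in cells with none, with 57.9% of those UMIs in 1 cell, and at 0 UMIs in WT saline interferon-high cells. Col14a1, by contrast, was higher in both WT libraries, at 106 CPM in WT AngII and 185 CPM in WT saline interferon-high cells, against 27.2 CPM and 46.6 CPM in cells with none (1.95 ± 0.17). Vcam1, an adhesion molecule for leukocytes, rose by 1.85 ± 0.18 and Igfbp2 by 1.37 ± 0.12.

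**Figure D5:**
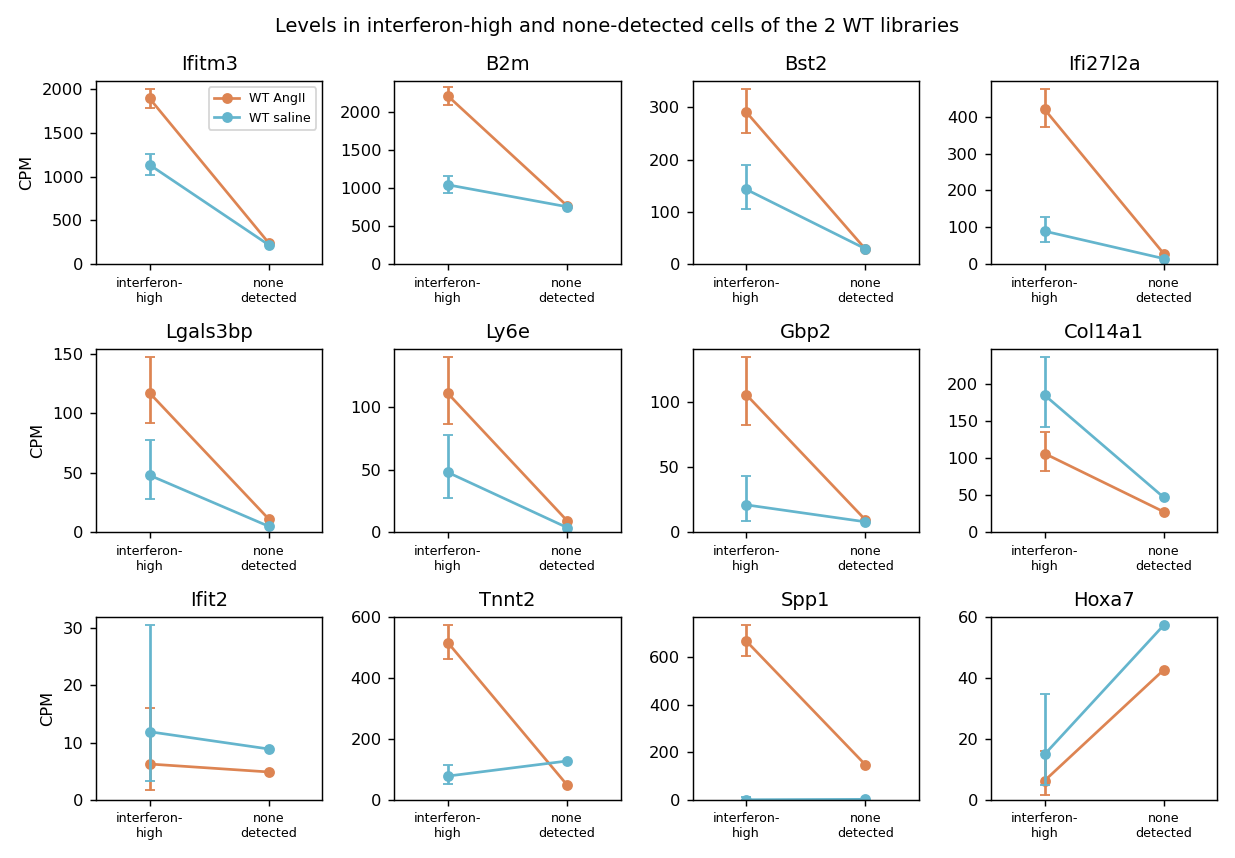
Level in CPM of 12 genes in interferon-high cells and in cells with none of the 8 genes, for the WT AngII and WT saline libraries, each axis starting at 0; bars on the interferon-high points are 95% exact Poisson intervals. Ifitm3 is at 1892 and 1134 CPM in interferon-high cells, against 241 and 219 CPM in cells with none; Tnnt2 is higher in interferon-high cells of WT AngII and lower in those of WT saline.

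Interferon-high cells of WT AngII and of WT saline were also set against each other, with 2-fold as the limit and no test. Of 1513 genes with enough UMIs, 137 were at least 2-fold higher in WT AngII (9.05%) and 70 at least 2-fold lower (4.63%). Of 8 other interferon-stimulated genes 5 were at least 2-fold higher. Gbp2 was at 106 CPM in WT AngII and 20.9 CPM in WT saline interferon-high cells (log2 ratio 2.35, 1.23 to 3.71) and B2m at 2207 CPM and 1041 CPM (1.08, 0.91 to 1.26), whereas Ifit1 was at 261 CPM and 283 CPM (-0.12, -0.49 to 0.26). Of 11 genes of the collagen list 10 passed the same limit upwards. In the whole gate all 14 eligible members did, against 5.44% of all genes there. The metallothionein Mt1 was at 565 CPM in WT AngII and 4426 CPM in WT saline interferon-high cells, and Timp1 at 481 CPM and 26.9 CPM.

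The 7 interferon-high cells of each Sting-KO library allow only coarse values. Bst2 was at 589 CPM in Sting-KO AngII and 291 CPM in WT AngII interferon-high cells (log2 ratio 1.02, 0.56 to 1.46). B2m was at 1387 CPM and 2207 CPM in the same cells (-0.67, -0.94 to -0.41). In Sting-KO saline interferon-high cells Ifitm3 was at 729 CPM, against 1134 CPM in WT saline (-0.64, -1.11 to -0.19), and Ly6e, Lgals3bp, Ifi27l2a and Gbp2 had 0 UMIs. At 3 counts of the 63107 UMIs of these 7 cells that allows up to 47.5 CPM for each, and the WT saline levels lay between 20.9 and 89.5 CPM. Rgs5 was at 1219 CPM in Sting-KO AngII and 2472 CPM in Sting-KO saline interferon-high cells, with 56.0% and 57.7% of its UMIs in 1 cell.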

How the data were processed

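The deposited tables of the 4 libraries hold UMI counts, whole numbers by their values, of 17524 genes in each cell. Per the submitters' processing notes Cell Ranger and mm10 were used; the sources used here do not state versions, annotation or cell filters, and no further cell was removed. Members, gene lists and tests were chosen with earlier results of these data known.

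Counts were summed per library over interferon-high cells and over cells with none of the 8 genes. A library entered the edgeR 4.0.16 fit (estimateDisp, glmQLFit, glmQLFTest; TMM, filterByExpr, library as block) with at least 20 cells in both classes; p-values were Benjamini-Hochberg adjusted. CPM was computed from these sums. The SE is the absolute log2 fold change divided by the square root of the F statistic of glmQLFTest. Named genes were the 15 higher and 10 lower genes with the smallest p also passing against 10 cells per interferon-high cell matched on UMIs (mitochondrial, ribosomal and predicted genes left out; some are not reported here), list members, and for libraries the genes whose interval lay farthest from 0. Between libraries, genes needed 50 UMIs in the higher library. On simulated sums the fit recovered 80% of genes raised by 1 and 54% lowered by 1 on the log2 scale (50 genes each). The changed genes had at least 20 UMIs in interferon-high cells, and all genes were given the same dispersion. These rates therefore do not cover genes with fewer UMIs or genes carried mostly by 1 cell. DESeq2 1.42.0, R 4.3.3, Python 3.11.15 and scipy 1.17.1 were used.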

Additional observations from a re-analysis of the deposited data

Results flagged for a closer look

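Tnnt2 and Des moved in opposite directions in the WT libraries. For Tnnt2 the log2 ratio of interferon-high cells over cells with none of the 8 genes was 3.42 in WT AngII and -0.71 in WT saline, and for Des it was 2.20 and -1.91, with counting intervals on opposite sides of 0. The differences were not tested, since each treatment has 1 library.

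The summed 8 genes in all gated smooth muscle cells also moved in opposite directions with AngII. The log2 ratio of AngII over saline was -0.72 in the Sting-KO libraries and 0.17 in the WT libraries, and the difference was not tested. The genes did not move as a group. In Sting-KO, Iigp1 was at 0.762 CPM under AngII and 4.12 CPM under saline, and Xaf1 at 2.30 and 4.35 CPM. Ifit1 (0.671 and 0.666 CPM) and Irf7 (1.03 and 1.02 CPM) hardly differed there. In WT, Ifit3, Iigp1 and Usp18 were lower under AngII, and Ifit1, Isg15, Irf7, Xaf1 and Oasl2 higher. Interferon-high cells carried 48.7% of the 8-gene sum of the WT AngII gate, against 31.6% for WT saline. With these cells left out the 8 genes stood at 7.50 CPM in Sting-KO AngII, against 15.8 CPM in Sting-KO saline. The WT levels were then 14.7 CPM under AngII, against 17.4 CPM under saline. The cells left out were chosen by these 8 genes, so leaving them out must lower the sums. A deeper cell also passes the rule more easily, and median gate depth was 10170 UMIs for WT AngII, against 6346 for WT saline. The remaining levels therefore cannot show which cells the WT value came from. Without cells holding 3 or more fibroblast or phagocyte UMIs the WT value was 0.04.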

How the results depend on the processing

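No paired analysis was possible because each group has 1 library and the groups share only the number 1. Against 148 higher and 84 lower genes, DESeq2 called 75 and 5, and edgeR without the library block called 4 and 0 (174 and 151 at an unadjusted p under 0.05). Fewer genes were lower against cells matched on UMIs (34), with median-of-ratios size factors (51), with at least 4 of the 8 genes (44) and with marker sums under 3 (55). After seeing the data, all 4 libraries were entered: 120 were higher and 67 lower; with matching 30 and 9; leaving out 1 library gave 123 and 45 (Sting-KO AngII), 51 and 29 (WT AngII), 128 and 35 (Sting-KO saline) and 80 and 21 (WT saline). Leaving a WT library out of the 2-library fit leaves no residual degree of freedom and gave no test. Of 53 named genes, these turned round in the 4-library fit without WT AngII: Tnnt2 (-1.14), Spp1 (-5.14), Des (-0.25), Ccl2 (-9.74), Irf1 (-0.98), Casp4 (-0.21), Col1a1 (-0.13), Col3a1 (-0.24), Col1a2 (-0.29) and Timp1 (-0.47). Col3a1 turned to -0.20 without WT saline; Col1a2 turned to -0.05 with all 4 libraries, -0.07 with matching and -0.21 without WT saline. Rgs5 turned to 0.18 with all 4 libraries, 0.55 with matching, 0.20 without WT saline, 0.79 without WT AngII and 0.31 without Sting-KO AngII. The cause was not tested.

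Shares in percent, for Sting-KO AngII, WT AngII, Sting-KO saline and WT saline, were 0.542, 2.50, 0.707 and 1.56 with at least 2 of the 8 genes, and 0.0374, 0.304, 0.0227 and 0.224 when thinned to 3000 UMIs. With at least 4 genes WT AngII was at 0.571, Sting-KO saline at 0.0202 and WT saline at 0.272; thinned to 5000 UMIs, WT AngII was at 0.529 and WT saline at 0.298. The Sting-KO to WT ratio under saline was 0.453 with at least 2 genes. Genes at least 2-fold higher and lower in WT AngII than in WT saline interferon-high cells numbered 213 and 41 with TMM, 210 and 41 with median-of-ratios scaling, and 922 and 2782 with no minimum of UMIs; lower genes numbered 35 with at least 4 genes and 20 after thinning to 3000 UMIs. The summed 8 genes in all gated cells, AngII over saline on the log2 scale, gave -0.55 (TMM) and -0.53 (median-of-ratios) in Sting-KO and 0.29, 0.30 and, with marker sums under 3, 0.04 in WT; Sting-KO AngII over WT AngII gave -1.30 with marker sums under 3. Depth limits the Sting-KO values, which rest on 7 cells a library.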

Other observations

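Of the 148 genes higher in interferon-high cells, 111 had a promoter window. Of these genes 31.5% held at least 1 pair of GAAA with 2 bases between (either strand) in any of their windows. The share was 3.77% of the 53 lower genes with a window and 3.50% of the 9296 tested genes with a window. Among the 29 higher interferon-stimulated genes outside the rule, 20 had a window and 45% of these held a match. These shares describe the sequences only.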
